A study of Mus musculus with 17 samples.

Results

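The genes described here are 9 mouse chemokine and chemokine receptor genes used by myeloid cells, the granulocytes, monocytes and macrophages. They are 5 ligand genes (Ccl2, Ccl3, Ccl4, Ccl6 and Ccl9) and 4 receptor genes (Ccr1, Ccr2, Cx3cr1 and Cxcr4). They were chosen by symbol: every probe that the platform annotation assigns to one of these names was taken, which gave 11 probes of the 45281 on the array, for 9 of 19057 genes. Ccl4 and Ccr2 had a pair of probes each, and the other genes had 1.

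The cells were C57Bl/6 bone marrow cells taken 4 days after the mice received 5-fluorouracil at 150 mg/kg, a treatment that removes cycling cells and spares quiescent progenitors. They were cultured for 7 days with stem cell factor, IL-11 and Flt3 ligand and transduced with MXW retroviral vectors, and the viable EGFP-positive cells were collected 5 days after the first transduction. Dataset A held empty vector cells (3 arrays), cells with a vector for the microRNA cluster 99b/let-7e/125a (3 arrays) and cells with a miR-155 vector (2 arrays analysed here). Dataset B held empty vector cells (3 arrays), cells with the cluster vector (3 arrays) and cells with a vector for miR-125a alone (3 arrays). All 6 groups share the drug treatment, the cytokines and retroviral transduction, so the empty vector is the control for the inserted microRNAs only. The cells were sorted for the vector and not for a lineage, and in a mixed culture fewer cells of one type and less RNA per cell cannot be told apart.

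Chemokines are small secreted proteins that bind to G-protein-coupled receptors and steer the movement of leukocytes along a concentration gradient. CCL3 and CCL4, also known as macrophage inflammatory proteins 1 alpha and 1 beta, are released by activated myeloid cells, and CCL3 is also known to restrain the cycling of haematopoietic stem cells. CCL6 and CCL9 are closely related chemokines that mouse myeloid cells make without stimulation, and CCL2 draws monocytes through CCR2. CXCR4, the receptor of CXCL12, retains progenitors in the marrow.

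The vectors carry microRNAs, which pair with messenger RNAs mainly through their seed. The mature sequences, from RefSeq on GRCm38.p6, are shown to let the vectors be told apart. The capitals mark the seed, bases 2 to 8.
mmu-miR-99b-5p: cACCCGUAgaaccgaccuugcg
mmu-let-7e-5p: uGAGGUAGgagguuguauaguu
mmu-miR-125a-5p: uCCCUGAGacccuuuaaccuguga
mmu-miR-155-5p: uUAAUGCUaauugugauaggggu
No seed is shared among these 4 microRNAs. The first 3 lie together on the plus strand of chromosome 17, at chr17:17830194-17830215, chr17:17830366-17830387 and chr17:17830817-17830840, and miR-155 lies on chromosome 16 at chr16:84714143-84714165.

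Of the 5 ligand genes 4 are neighbours on chromosome 11. In the RefSeq annotation the order of coding genes there is Ccl5, Ccl9, Ccl6, Ccl3, Ccl4 and Wfdc17, while Ccl2 lies elsewhere on the chromosome beside Ccl7. Ccr1, Ccr2 and Cx3cr1 are on chromosome 9, with Cx3cr1 next to Ccr8, and Cxcr4 is on chromosome 1. RefSeq promoter windows were at hand for 7 of the 9 genes. Those of Ccl3 and Ccl9 are printed because these neighbours were the genes that passed the test under miR-155, in opposite directions. Each holds the 250 bases before the annotated start on the minus strand of GRCm38.p6, at chr11:83649379-83649628 for Ccl3 and chr11:83578637-83578886 for Ccl9. The capitals mark matches, on either strand, to TATAAA, the TATA box, and to GGAAGT, a core bound by PU.1 and other ETS factors.
Ccl3: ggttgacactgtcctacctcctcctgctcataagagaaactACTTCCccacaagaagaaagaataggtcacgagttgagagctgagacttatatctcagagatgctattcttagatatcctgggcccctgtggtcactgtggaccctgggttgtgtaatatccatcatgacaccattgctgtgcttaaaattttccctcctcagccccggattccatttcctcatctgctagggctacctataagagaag
Ccl9: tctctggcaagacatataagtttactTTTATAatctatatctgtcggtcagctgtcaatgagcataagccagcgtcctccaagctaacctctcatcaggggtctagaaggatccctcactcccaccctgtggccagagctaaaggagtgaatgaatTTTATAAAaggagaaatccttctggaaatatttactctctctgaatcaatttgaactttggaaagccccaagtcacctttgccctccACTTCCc
GGAAGT was found in the windows of Ccl3, Ccl6 and Ccl9, with 1 match each, starting 209, 48 and 7 bases before the start, and in 19.7% of all 32851 RefSeq windows of this length. TATAAA was found in the windows of Ccl9 and Cxcr4 and in 12.4% of all windows. In both genes TATAAA and its reverse complement overlap at 1 place. A C/EBP motif spelled TTGCNNAA was in none of the 7 windows and in 9.56% of all. No motif overlapped another one. Over the windows with 50 further bases after the start, the best local match among all pairs of these genes was that of Ccl6 and Ccl9, with 59 identical bases in 74 aligned columns (79.7%). The 17 bases below come from a separate local alignment of Ccl6 and Ccl9 over the 250 bases before the start alone. Capitals mark the 16 positions at which the genes are identical.
Ccl6: CTTgGCCCTCCACTTCC
Ccl9: CTTtGCCCTCCACTTCC

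Between 34.2% and 38.9% of all probes were detected on an array, that is, had a deposited detection p-value below 0.05. Markers of monocytes and macrophages were present in both datasets, with 20 of 26 list genes detected on all empty vector arrays of A and 20 of 26 on those of B. All 17 neutrophil markers were detected on every empty vector array of A, and 14 of 17 on every one of B, where Retnlg was detected on none. The labels give no cell type beyond bone marrow. Among the chemokine and receptor genes, Ccr1 was not detected on any of the 17 arrays, and its normalized log2 intensity stayed between 4.15 and 4.56. It entered no test. Ccl2 was detected on 0 of 8 arrays in A and on 9 of 9 in B. This left 7 genes tested in A, among 10339 genes, and 8 tested in B, among 9430. In what follows a level is a log2 intensity, normalized within its dataset. A gene is called changed where limma's Benjamini-Hochberg adjusted p over all genes tested is below 0.05. Levels of A and B are placed side by side and were not tested against each other.

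**Figure D1:**
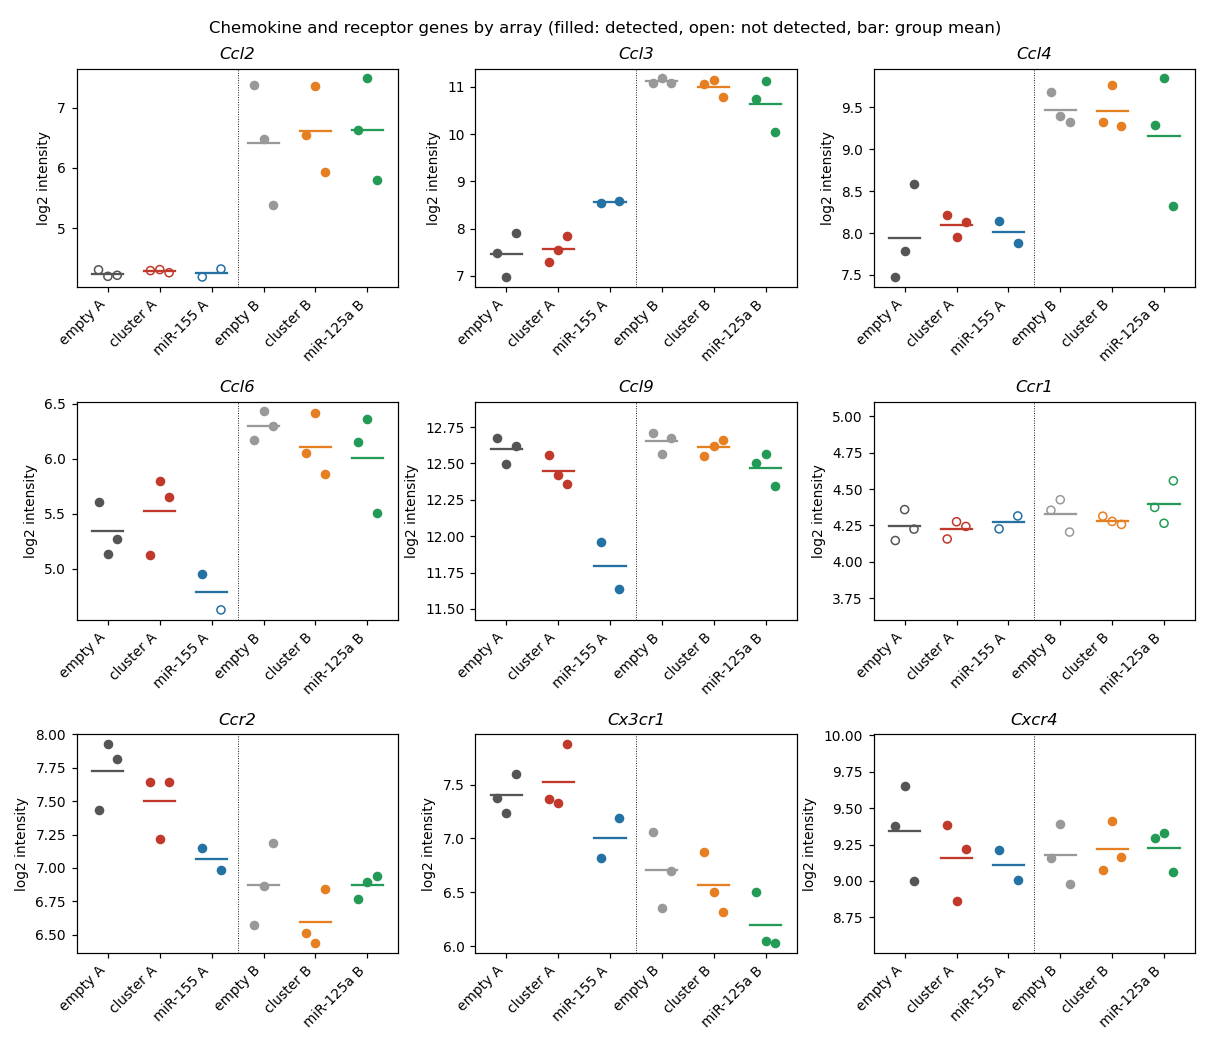
Normalized log2 intensity of each gene (y axis, own range in each panel) on each of the 17 arrays, by vector and dataset (x axis). Filled points were detected and open points were not, and bars are group means. All Ccl3 values of dataset A (6.98 to 8.58) are below all those of dataset B (10.05 to 11.18), and within dataset A Ccl9 is lowest on both miR-155 arrays.

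In cells with the miR-155 vector Ccl3 rose and Ccl9 fell against the empty vector, and no other gene of the 9 was called. Ccl3, which encodes macrophage inflammatory protein 1 alpha, was 2.15-fold higher. Ccl9, which encodes a chemokine made by myeloid cells and also known from osteoclasts, was 1.74-fold lower. These 2 calls out of 7 tested stand beside a background of 1.07% of all genes called in this comparison (0.203% higher and 0.87% lower). With limma 4 of the 7 had an unadjusted p below 0.05, beside 9% of all genes.

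The Ccl3 levels were 7.48, 6.98 and 7.90 on empty vector arrays 1, 2 and 3, and 8.54 and 8.58 on miR-155 arrays 1 and 2. Both miR-155 arrays lay above every empty vector array. The log2 difference was 1.11 (SE 0.24, 95% interval 0.60 to 1.61, limma adjusted p = 0.0329). The cluster arrays of the same dataset, 7.30, 7.56 and 7.84, lay within the empty vector range. Before normalization the miR-155 arrays had deposited Ccl3 signals of 475 and 294, and the empty vector arrays had signals from 219 to 314. The second miR-155 array thus had a higher signal than empty vector arrays 2 (219) and 3 (290) and a lower one than array 1 (314). It was above every empty vector array only after normalization. The second miR-155 array had the lowest share of detected probes in dataset A, 34.8%.

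The Ccl9 levels were 12.67, 12.50 and 12.62 on the empty vector arrays and 11.96 and 11.64 on the miR-155 arrays. The groups did not overlap, and the miR-155 arrays were the lowest of the 8 arrays of dataset A. The log2 difference was -0.80 (SE 0.18, 95% interval -1.18 to -0.42, limma adjusted p = 0.0443). The deposited signals, 4212 and 2064 under miR-155 and 5794 to 8647 with the empty vector, did not overlap either. These signals are not adjusted for the brightness of an array. On the second miR-155 array Ccl4 (207 against 313 to 425) and Cxcr4 (370 against 550 to 975) also had lower signals than with the empty vector. The normalized levels of both overlapped.

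Both calls lay near the threshold and rested on 2 arrays. Ccl3 kept a positive change in all 16 alternatives, from 0.81 to 1.32, and was called in 8 of them. The call was lost when empty vector array 1 was left out (adjusted p = 0.0913), and likewise empty vector array 2 (0.110), miR-155 array 1 (0.118) or miR-155 array 2 (0.336), with the lone array then assumed to vary like the other groups. It was also lost without background correction (0.0937), with scaling to the median of detected probes (0.0985), with the authors' deposited log2 values (0.0981) and with no filter on undetected genes (0.241). Ccl9 kept a negative change in all 16, from -0.96 to -0.63, and was called in 7. Leaving out 1 array ended the call for empty vector array 1 (0.149), 2 (0.0815) or 3 (0.132), for the unnumbered cluster array (0.0680), and for miR-155 array 1 (0.0665) or 2 (0.659). It also ended with median scaling (0.135), with no filter (0.0620) and over all probes (0.0634).

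**Figure D2:**
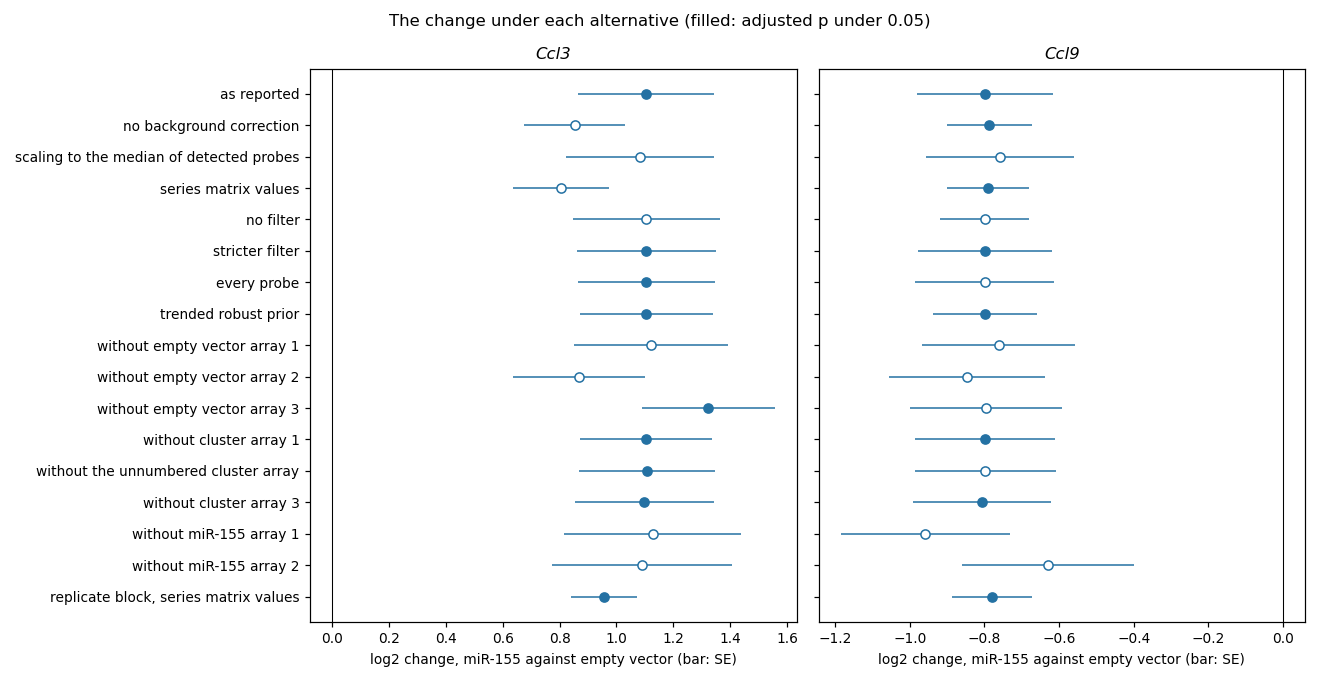
Log2 change of Ccl3 (left) and Ccl9 (right) under miR-155 against the empty vector of dataset A (x axis, bar: SE) in each alternative processing (y axis). Filled points have an adjusted p below 0.05. All Ccl3 values lie between 0.81 and 1.32 and all Ccl9 values between -0.96 and -0.63, while the call holds in only part of them.

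Another 3 genes were lower on both miR-155 arrays than on every empty vector array without being called. In this comparison the groups failed to overlap for 24.1% of all genes (11.8% higher and 12.4% lower), so that a split of this kind is common here. Ccl6, the neighbour and close relative of Ccl9, had levels of 5.61, 5.14 and 5.27 with the empty vector and 4.95 and 4.63 with miR-155. The log2 difference was -0.55 (SE 0.22, limma adjusted p = 0.431), and Ccl6 was detected on only 1 of 2 miR-155 arrays. The difference was -0.18 without background correction, -0.24 with median scaling and -0.17 with the authors' deposited log2 values. Ccr2, the CCL2 receptor of inflammatory monocytes, had levels of 7.44, 7.93 and 7.82 against 7.15 and 6.98. Its log2 difference was -0.66 (SE 0.21, limma adjusted p = 0.212), or -0.44 with the authors' deposited log2 values. Cx3cr1, the fractalkine receptor of patrolling monocytes and macrophages, had levels of 7.38, 7.23 and 7.60 against 6.82 and 7.19. It differed by -0.40 (SE 0.21, limma adjusted p = 0.612), or by -0.25 with the authors' deposited log2 values.

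The remaining genes overlapped between the groups. Ccl4, which encodes macrophage inflammatory protein 1 beta, had levels of 7.48, 7.78 and 8.58 with the empty vector and 8.14 and 7.88 with miR-155, a log2 difference of 0.07 (95% interval -0.47 to 0.60, limma adjusted p = 0.973). Although Ccl4 lies next to Ccl3, both of its miR-155 values fell inside the empty vector range. The second Ccl4 probe differed by 0.30 (limma adjusted p over all probes = 0.805). Cxcr4 had levels of 9.38, 9.65 and 9.0 against 9.21 and 9.0, a log2 difference of -0.24 (95% interval -0.70 to 0.23, limma adjusted p = 0.835).

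Monocyte and macrophage markers moved in the same comparison. Of 22 tested markers 7 fell and 0 rose, beside 1.07% of all genes called, 21 had a negative change (49.1% of all genes had one), and the median log2 change was -0.72, beside 0.01 over all genes tested. The summed level of the list was 33806 to 37888 on the empty vector arrays and 19827 to 25050 on the miR-155 arrays. C1qa, C1qb, C1qc, Cybb and Msr1 were undetected on both of the latter, and of these C1qa, C1qc and Cybb were also undetected on every empty vector array of A. Of 17 neutrophil markers 6 fell (of all genes again 1.07% were called), with a median of -0.53 and summed levels of 115885 to 122760 against 97775 to 100302. The part of these cell types in the changes of Ccl9, Ccl6, Ccr2 and Cx3cr1 was not tested. Ccl3 rose while both marker lists were lower.

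**Figure D3:**
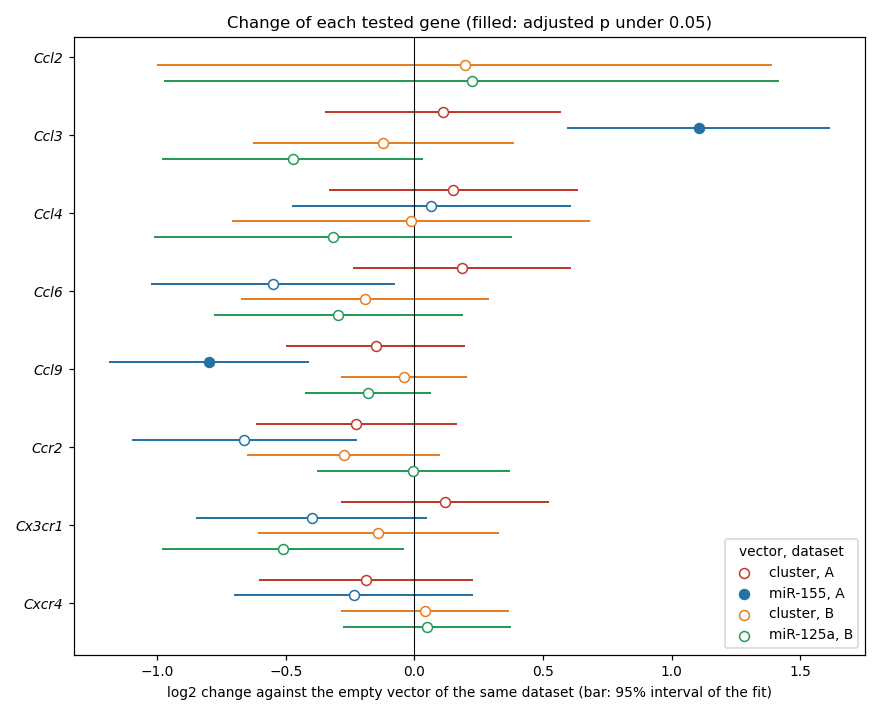
Log2 change against the empty vector of the same dataset (x axis, bar: 95% interval of the fit) for each tested gene (y axis) and vector (colour). Filled points have an adjusted p below 0.05. The filled points are Ccl3 at 1.11 and Ccl9 at -0.80, both under miR-155.

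None of these genes passed the test under the cluster vector in either dataset. In A 0 of 7 were called by limma and 0 had an unadjusted p below 0.05, beside 0.648% and 7.88% of all genes. In B 0 of 8 were called and 0 had an unadjusted p below 0.05, beside 0.0106% and 9.72%. The groups overlapped for every tested gene in both datasets, whereas they did not for 13.1% of all genes in A and 16% in B.

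For Ccl3 the cluster levels in B were 11.05, 11.14 and 10.79, and the empty vector levels were 11.09, 11.18 and 11.08. The log2 difference was 0.11 in A (95% interval -0.34 to 0.57) and -0.12 in B (-0.62 to 0.38). For Ccl9 the cluster levels were 12.56, 12.36 and 12.42 in A, with the array without a number second, and 12.55, 12.62 and 12.66 in B. The empty vector levels of B were 12.71, 12.57 and 12.68. The log2 difference of Ccl9 was -0.15 in A (-0.49 to 0.19) and -0.04 in B (-0.28 to 0.20), the narrowest interval among the ligands in both datasets.

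Ccl4 had cluster levels of 8.21, 8.13 and 7.95 in A and of 9.32, 9.77 and 9.27 in B, where the empty vector had 9.68, 9.39 and 9.33. Its log2 differences were 0.15 (-0.33 to 0.63) and -0.01 (-0.71 to 0.68). The second Ccl4 probe differed by 0.43 in A (unadjusted p = 0.0373, limma adjusted p over all probes = 0.659) and by -0.37 in B (adjusted p = 0.696). Ccl6 had cluster levels of 5.13, 5.65 and 5.79 in A and of 6.05, 6.41 and 5.86 in B, where the empty vector had 6.17, 6.43 and 6.30. It differed by 0.18 in A (-0.23 to 0.60) and by -0.19 in B (-0.67 to 0.29). Ccl2, which could be tested in B alone, had levels of 7.38, 6.48 and 5.39 with the empty vector and 6.55, 7.35 and 5.93 with the cluster. Its 95% interval, -0.996 to 1.39, was the widest of these genes in B, and its level spread widely inside each group.

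Among the receptors, Ccr2 was the one with a negative difference of the cluster in both datasets. Its cluster levels were 7.65, 7.64 and 7.22 in A and 6.51, 6.44 and 6.84 in B, where the empty vector had 6.57, 6.86 and 7.18. The log2 differences were -0.23 in A (limma adjusted p = 0.873) and -0.27 in B (limma adjusted p = 0.653). Cx3cr1 had cluster levels of 7.37, 7.87 and 7.33 in A and of 6.87, 6.51 and 6.31 in B, where the empty vector had 7.06, 6.35 and 6.70. It differed by 0.12 (-0.28 to 0.52) and -0.14 (-0.61 to 0.33). Cxcr4 had cluster levels of 9.38, 9.22 and 8.86 in A and of 9.07, 9.41 and 9.17 in B, where the empty vector had 9.16, 9.39 and 8.98. It differed by -0.19 (-0.60 to 0.22) and 0.04 (-0.28 to 0.36). The second Ccr2 probe was undetected on every array except 1 cluster and 1 miR-125a array of B, so that all Ccr2 levels given here come from 1 probe. The undetected probe is the one annotated to the RefSeq transcript record of Ccr2. The probe used is annotated to a record outside RefSeq, so the Ccr2 levels and differences were not seen with the RefSeq probe.

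The cluster effect itself was compared between the datasets in a fit over 12 arrays normalized together. Ccl2, undetected on every array of A, entered this fit through B alone, so that it has no measured cluster effect in A to compare. Of the 8 genes in the fit 0 were called by limma, as were 0% of the 10106 genes tested, and 0 of 8 had an unadjusted p below 0.05, beside 5.58% of all genes. The lowest p among the 8 was that of Ccl6, 0.179. The second Ccl4 probe had a difference between the datasets of 0.79 (unadjusted p = 0.0034, limma adjusted p over all probes = 0.928), while the first probe had 0.17.

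The vector for miR-125a alone gave no called gene among the 8 tested, nor among all 9430, so that the background is 0%. With limma 1 of the 8 had an unadjusted p below 0.05, beside 10.6% of all genes. This was Cx3cr1, with levels of 6.5, 6.05 and 6.03 against 7.06, 6.35 and 6.70 with the empty vector, a log2 difference of -0.51 (95% interval -0.98 to -0.04, limma adjusted p = 0.428). The highest miR-125a array lay above the lowest empty vector array.

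Ccl3 had levels of 10.74, 11.14 and 10.05 under miR-125a, a log2 difference of -0.47 (SE 0.23, limma adjusted p = 0.504). The third array was the lowest, and without it the difference was -0.18. The same array was the lowest of the 9 in B for Ccl3, Ccl4, Ccl6 and Ccl9. Ccl4 had levels of 9.29, 9.84 and 8.33 and a log2 difference of -0.31 (limma adjusted p = 0.762), which became 0.10 without the third array. The second Ccl4 probe differed by -0.65 (unadjusted p = 0.0175, limma adjusted p over all probes = 0.428). Ccl6 had levels of 6.15, 6.36 and 5.50 and a log2 difference of -0.30, or -0.04 without the third array. The summed level of the mast cell and basophil markers was 9300 on the third miR-125a array, 4547 and 4896 on the others and 3467 to 4220 on the empty vector arrays, so that all 3 lay above the empty vector range. Of 9 tested markers of that list 0 were called and 9 had a positive change, with a median of 0.55 beside 0.03 over all genes. Their part in these values was not tested.

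Ccl9 was the 1 gene whose levels did not overlap under miR-125a, at 12.51, 12.56 and 12.35 against 12.71, 12.57 and 12.68. The log2 difference was -0.18 (95% interval -0.42 to 0.06, limma adjusted p = 0.608). Groups did not overlap for 15.4% of all genes in this comparison, and for 5.39% the miR-125a arrays were the lower ones. Ccl2 had levels of 6.63, 7.48 and 5.80 (difference 0.22, SE 0.54), Ccr2 of 6.77, 6.90 and 6.94 (difference 0.00, SE 0.17) and Cxcr4 of 9.29, 9.33 and 9.06 (difference 0.05, SE 0.15). All 3 genes overlapped with the empty vector, and the highest Ccl2 array with miR-125a lay just above the highest one with the empty vector.

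A direct comparison of the cluster with miR-155 gave 0 called genes of 7, beside 0.861% of all genes, although 5 of the 7 had an unadjusted limma p below 0.05, beside 10.3%. These 5 also did not overlap, as did 25.2% of all genes. Ccl3 was lower with the cluster by 0.99 (log2 difference -0.99, SE 0.24, limma adjusted p = 0.0655). Ccl6 had a log2 difference of 0.73 (adjusted p = 0.168), Ccl9 of 0.65 (0.127), Cx3cr1 of 0.52 (0.378) and Ccr2 of 0.44 (0.482), all higher with the cluster. With limma's trended robust prior Ccl3 (adjusted p = 0.0257) and Ccl9 (0.0103) were called. Without empty vector array 2 (0.0330) or 3 (0.0495) Ccl3 was called. Because this comparison uses the same miR-155 arrays as the one against the empty vector, its values are no separate evidence on them. The cluster and miR-125a vectors differed in 0 of 8 genes by limma (0% of all genes called), and 0 of 8 had an unadjusted p below 0.05, beside 4.52%.

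Within dataset A the order of mean Ccl3 levels was miR-155 (8.56), cluster (7.57) and empty vector (7.45), and that of Ccl9 was empty vector (12.60), cluster (12.45) and miR-155 (11.80). In both orders a call separated the ends, miR-155 and the empty vector, and none separated neighbours. For Ccl4, Ccl6, Ccr2, Cx3cr1 and Cxcr4 no neighbours in the order of group means were separated by a call. In B no neighbours were separated for any of the 8 genes. Across the datasets, the mean empty vector level of Ccl3 was 7.45 in A (SD 0.46, n = 3) and 11.12 in B (SD 0.05, n = 3), so that the level reached with miR-155, 8.56, was far below that of any group of B.

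**Figure D4:**
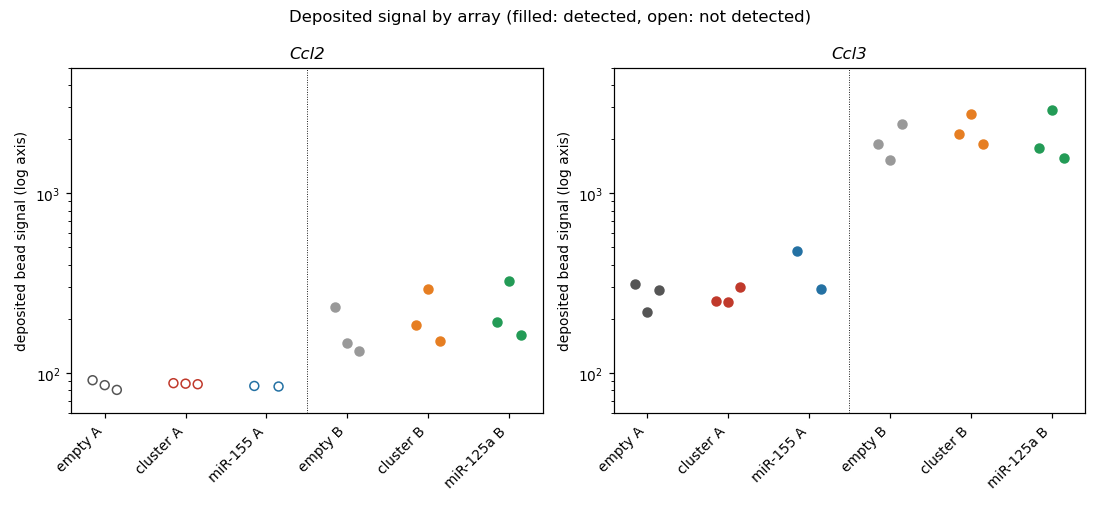
Deposited bead signal (y axis, log scale) of Ccl2 (left) and Ccl3 (right) on each array by vector and dataset (x axis), before any background correction or normalization. Filled points were detected. The Ccl3 signals run from 219 to 475 in dataset A, against 1522 to 2890 for dataset B, and Ccl2 is undetected on all 8 arrays of A.

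The other genes of the chemokine system were followed through lists. Of 38 chemokine ligand genes on the array 12 were tested in A and 16 in B. Under miR-155 the called ligands were Ccl3 and Ccl9 alone, and the list median was 0.00, beside 0.01 over all genes. Under the cluster 0 of 12 ligands were called in A, beside 0.648% of all genes. The changes largest in size there were those of Ppbp, the platelet basic protein (-0.92, limma adjusted p = 0.641), and Cxcl16, a transmembrane chemokine (0.33, 0.667). In B 0 of 16 were called under either vector, beside 0.0106% of all genes under the cluster and 0% under miR-125a. Ccl20, the CCR6 ligand, was detected on 3 of 3 empty vector arrays of B, on 1 of 3 cluster arrays and on 0 of 3 miR-125a arrays. It had -0.70 with the cluster (limma adjusted p = 0.316). With miR-125a only a bound can be given, and its mean was at least 1.43-fold lower (limma adjusted p = 0.252), measured mean levels being 5.24 and 4.48. These 2 comparisons share their control arrays. Cxcl2, a neutrophil attractant, had 0.42 with the cluster (0.908) and -0.58 with miR-125a (0.838). The ligand median under miR-125a was -0.19, with 13 of 16 genes negative, beside 0.03 and 44% negative over all genes. The summed ligand level was 9658, 11344 and 7763 on miR-125a arrays 1, 2 and 3, beside 10679 to 11438 with the empty vector. The third array was thus the lowest here too, and the list was not fitted without it.

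Cxcl16 was the called ligand in the direct comparison of cluster and miR-155 (limma adjusted p = 0.0088). It was detected on 3 of 3 cluster arrays and on 0 of 2 miR-155 arrays, so that again only a bound can be given. The bound sets the mean of the brighter group against the lowest detected signal on each array of the other, and leaves out the spread between arrays. The measured mean level of Cxcl16 was 5.42 with the cluster and 4.33 with miR-155, and its mean was at least 1.74-fold higher with the cluster.

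Of 23 receptor genes 9 were tested in A and 6 in B, and 0 were called in any comparison, beside at most 1.07% of all genes. Under miR-155 those with the largest changes were Ccr2 and Cx3cr1, described above. Under the cluster Cxcr2, the receptor that brings neutrophils out of the marrow, had 0.70 in A (limma adjusted p = 0.102) and 0.42 in B (0.676), and in the direct comparison it was higher with the cluster than with miR-155 by 0.80 (0.0675). Ackr4, a scavenging receptor, had 0.39 with the cluster (0.621) and 0.44 with miR-125a (0.529) in B.

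Genes that act downstream of chemokine receptors were also not called. Of 37 signalling genes 32 were tested in each dataset, with 0 called in each comparison with the empty vector and medians from -0.04 to 0.06. Of all genes 0.648% (cluster) and 1.07% (miR-155) were called in A, and 0.0106% (cluster) and 0% (miR-125a) in B. A count of 0 is thus near the share of all genes. Under miR-155 Rgs2, a regulator that shuts off G-protein signals, was detected on 3 of 3 empty vector and 0 of 2 miR-155 arrays. Its mean was at least 1.10-fold lower with miR-155 (limma adjusted p = 0.533), a bound that leaves out the spread between arrays. The measured mean levels were 4.76 and 4.37. Pik3cg, the catalytic subunit of the PI3-kinase that chemokine receptors activate, had -0.35 (0.648). Under the cluster in A Cyth1 had -0.49 (0.328) and Rgs1 0.44 (0.525). In B Was, the Wiskott-Aldrich syndrome protein of the actin cytoskeleton, had -0.52 with the cluster (0.210) and -0.43 with miR-125a (0.260), and Plcb3, a phospholipase C, had 0.46 with both (0.482 and 0.434).

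Of 12 tested genes of the inflammatory response list, Il1b, which encodes interleukin 1 beta, fell under miR-155 by 1.13 on the log2 scale (limma adjusted p = 0.0169). It was the 1 gene of that list called in a comparison with the empty vector, beside 1.07% of all genes called under miR-155. In the same comparison Ccl3, also an inflammatory gene, rose. Under the cluster Nfkbia, an inhibitor of NF-kappa B, had -0.66 in A (0.130) and Egr1, an immediate early gene, 0.61 (0.488), and Egr1 and Socs3 had 1.16 (0.347) and 0.72 (0.322) in B. Under miR-125a Nfkbia had -0.68 (0.385) and Egr1 0.66 (0.544).

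**Figure D5:**
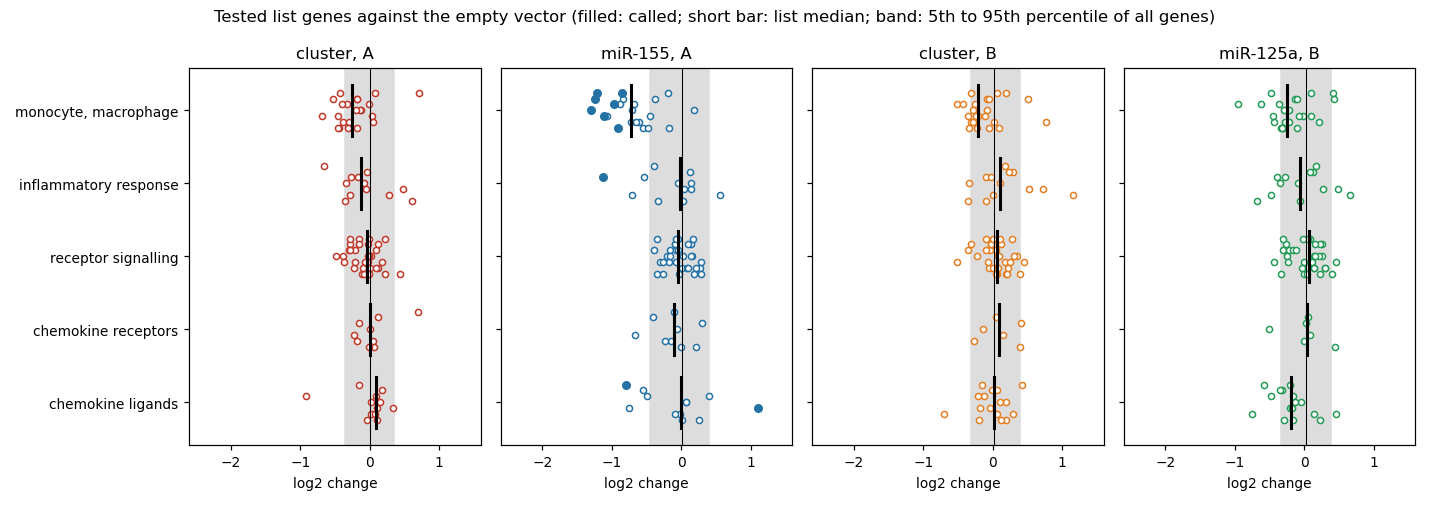
Log2 change of each tested gene (x axis) of 4 chemokine-related lists and of the monocyte and macrophage markers (y axis), for each vector against its empty vector (panels). Filled points were called, short bars are list medians, the grey band spans the 5th to 95th percentile of all genes, and the thin line is their median. Under miR-155 the monocyte and macrophage median is -0.72 while the medians of the ligand, receptor, signalling and inflammatory lists lie near 0.

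In the direct comparisons the list genes with the largest changes were not called apart from Cxcl16. Between the cluster and miR-155 Il1b differed by 0.86 (limma adjusted p = 0.0904), Egr1 by 0.59 (0.465), Cyth1 by -0.64 (0.137) and Gng2 by -0.35 (0.560), a positive value being higher with the cluster. Between the cluster and miR-125a the adjusted p was 0.9997 for Cxcl2, Cxcl16, Cxcr2, Rgs1, Rgs18, Egr1 and Nfkbiz, with differences from 0.39 for Cxcr2 to 1.0 for Cxcl2. In the cluster effect of A minus that of B, Ppbp had -1.13 (0.875), Ackr4 -0.35 (0.908), Ccrl2 -0.30 (0.913), Cyth1 -0.82 (0.869), Plcb3 -0.67 (0.875), Fos -0.78 (0.869) and Il1b -0.56 (0.911). Ccl20, the other ligand named there, was undetected on all empty vector and cluster arrays of A. The Ppbp value of -1.13 comes from another probe than the -0.92 given for A, because the brightest probe differed between the fits.

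Under the cluster in A 5 of 17 neutrophil and 2 of 4 eosinophil markers fell, beside 0.648% of all genes called. Of 22 monocyte and macrophage markers 0 were called, as were 0 of the chemokine and receptor genes. A negative change was seen in 18 of these 22 markers, with a median of -0.25 beside 0.00 over all genes. In B 0 markers of these lists were called with either vector, beside 0.0106% of all genes under the cluster and 0% under miR-125a. Of 24 monocyte and macrophage markers tested there, 18 were negative under the cluster (median -0.22) and 19 under miR-125a (median -0.25). The neutrophil medians were 0.08 and 0.16, beside 0.02 and 0.03 over all genes.

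The genes did not vary as a block across arrays. After each dataset's mean was removed, Ccl3 and Ccl9 had a Pearson correlation of -0.82 over the 8 arrays of A and 0.77 over the 9 arrays of B. The value in A rests on the miR-155 arrays, and over the other 6 arrays it was -0.095. Ccl3 and Ccl4 had 0.25 in A and 0.91 in B, and Ccl3 and Ccl6 had -0.50 and 0.91. Without the miR-155 arrays the values in A were 0.54 for Ccl3 and Ccl4 and 0.49 for Ccl3 and Ccl6. Much of the likeness in B came from 1 array: without the third miR-125a array the values fell to 0.60 for Ccl3 and Ccl4, 0.74 for Ccl3 and Ccl6, and 0.19 for Ccl3 and Ccl9. These values share arrays and normalization and are given as descriptions.

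The genes whose levels ran most like each chemokine gene were sought among 9009 genes over the same 17 arrays. For Ccl3 they were Creb3 (r = 0.89) and Znrd1 (0.86), and for Ccl4 Rnf19b (0.85) and Itgb3bp (0.85). For Ccl6 they were Csta3 (0.85) and Dtd2 (0.83), and for Ccl9 6530402F18Rik (0.86) and Gbp3 (0.86), the latter at 0.92 in A and 0.21 in B. Among the receptors Ccr2 ran with 3110040N11Rik (0.85) and Tspo (0.81), Cx3cr1 with Pde3a (0.85) and Fam133b (0.85), and Cxcr4 with Smarcal1 (0.82) and Aldoa (0.81). Pde3a had 0.67 in A and 0.95 in B, and Aldoa had 0.89 and 0.66. The 9 genes themselves were left out of the search. Every r was picked as one of the highest among 9009 genes, which by itself makes it high, and is given as a description.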

How the data were processed

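Messenger RNA was measured on Illumina mouse bead arrays from 100 ng of total RNA. Per the file headers, the authors deposited an average signal intensity and a detection p-value per probe and array, and GenomeStudio is named in the submitters' processing notes. They also deposited a table of log2 values, normalized in a way not given in the sources used here, which served as an alternative (medians 6.47 in dataset A and 6.80 in dataset B). One signal heading occurs on 2 columns, and the second was taken as an unnumbered cluster array of A.

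Within each dataset, intensities were background-corrected (limma 3.58.1 in R 4.3.3, normexp with detection p-values, offset 16), quantile-normalized and put on the log2 scale. The brightest probe stood for its gene, and a gene was tested if this probe was detected (p-value below 0.05) on at least 2 arrays of A or 3 of B. Each dataset was fitted with limma in 1 model over its groups, without covariates, and p-values were adjusted by the Benjamini-Hochberg method over all genes tested. The fits were tested on simulated data. Of 45281 probes 34885 had 1 gene symbol, 18 had several and 10378 had none. Promoters were searched with Biopython 1.88.

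The 9 genes, the lists and the tests were chosen with earlier results of these data known. All 9 genes are named. Of the chemokine ligand, receptor, signalling and inflammatory lists the called genes are named (at most 4) or, where none was called, 2 with the largest change in size, cell type markers are given as counts, medians and sums, and for each gene tested in both datasets the 2 most correlated others. The series text describes the replicates as independent. No 2 arrays held identical values (0 of 136 pairs). Same-numbered empty vector and cluster arrays of B deviated together (correlations 0.12, 0.18 and 0.18), which meets the rule for pairs used here, although no label states a pairing. Those of A did not do so in every pair (-0.18, -0.03 and 0.36). The number of arrays limits the precision of every value. Alternatives were no background correction, scaling to the median of detected probes, the authors' log2 values, no filter, a stricter filter, all probes, a trended robust prior, a replicate block and leaving out arrays.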

Additional observations from a re-analysis of the deposited data

How the results depend on the processing

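Under miR-155 the 2 called genes became 1 without background correction, 0 with scaling to the median of detected probes, 1 with the authors' log2 values, 0 with no filter, 1 over all probes and 0 to 2 with 1 array left out, and the cause was not tested. The number called over all genes moved as well. It was 111 of 10339 as reported, 56 without background correction, 52 with median scaling and 56 with the authors' log2 values. With no filter 40 of 19057 genes were called, and 118 of 19159 over all probes. For the cluster against miR-155 the count rose from 0 to 2 with the trended robust prior and was 0 to 1 with 1 array left out. Over all 10339 genes the number called rose from 89 to 115 with that prior. In the other comparisons it stayed at 0 in each alternative run. With the replicate block, run on the authors' log2 values in A, 0 of these genes were called under the cluster in A or B. Under miR-155 Ccl3 (0.96, limma adjusted p = 0.00021) and Ccl9 (-0.78, 0.00070) were called. Each block fit held only the 2 groups compared, which under miR-155 were 3 empty vector and 2 miR-155 arrays. Empty vector array 3 has no same-numbered miR-155 array, so that the spread in this fit rests on 2 pairs. Its low adjusted p-values thus rest on very few arrays. In the cluster comparisons the block changed no call. Over all genes the block fit gave 202 called of 10326 under miR-155, beside 56 on the authors' log2 values of all 8 arrays of A without a block. The block and the set of arrays changed together here, so that the rise cannot be credited to the block alone. Same-numbered empty vector and miR-155 arrays of A had correlations of 0.32 and 0.059. No label states a pairing, so whether the numbers of A pair the samples is not known.

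Uncalled differences near 0 changed sign. Without arrays 5 of both groups in B, Ccl2 had -0.14 under the cluster. With 1 array left out, the cluster differences in A ranged from -0.13 to 0.33 for Ccl3, -0.084 to 0.47 for Ccl4 and -0.055 to 0.22 for Cx3cr1. In B they ranged from -0.32 to 0.68 for Ccl2, -0.17 to 0.092 for Ccl4, -0.32 to 0.038 for Cx3cr1 and -0.056 to 0.15 for Cxcr4. Under miR-125a they ranged from -0.29 to 0.71 for Ccl2, -0.66 to 0.10 for Ccl4, -0.16 to 0.15 for Ccr2 and -0.047 to 0.16 for Cxcr4, and under miR-155 from -0.17 to 0.38 for Ccl4. Ccl6, near background in A, and Ccl2, undetected there, are limited by signal.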

Other observations

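Some of the ligand and receptor genes had other levels in dataset B than in dataset A. With the empty vector and cluster arrays of both datasets normalized together, the mean Ccl3 level with the empty vector was 7.43 in A and 11.09 in B. This difference of 3.66 ranked 2 among 10106 genes. Ccl4 was higher in B by 1.57 (rank 142) and Ccl6 by 0.87. Ccl2 was undetected on every array of A and at least 3.38-fold higher in B, set against the lowest detected signal on each empty vector array of A (measured means 4.29 and 6.39). Ccr2 and Cx3cr1 had differences of -0.83 and -0.69, lower in B, while Ccl9 and Cxcr4 had -0.19 and -0.10, in the middle of all genes (ranks 5416 and 4688). Ccr1 was undetected in both. The cluster arrays had Ccl3 means of 7.54 and 10.97. Of 34885 probes with 1 gene symbol, 19 (0.0545%), the Ccl2 probe among them, were detected on all arrays of B and on none of A, and 38 (0.109%) showed the reverse. Each dataset was a set of arrays of its own, so that culture, array and dataset cannot be told apart, and no test was made.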
